A study of Mus musculus with 4 samples.

Results

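The strongest shared regions of the dentate gyrus were the 1438 places on the numbered autosomes where each of 4 FAIRE-seq libraries had a summit in the top of its own list. Summits of the 4 lists lying within 250 bp of the next were joined, which gave 82899 regions in the whole series, and 26592 of them held a summit of all 4 libraries. The score of a summit was read as the −log10 of a p or q value, so a higher score means stronger evidence of enrichment. A region was kept if its highest score in every library was at or above the 95th percentile of that library's scores. Regions in windows of 50 kb with 5 or more regions of all 4 libraries were dropped. The members made up 1.73% of all joined regions and 5.71% of the 25165 shared regions that passed the same chromosome and window filters. The other 23727 of these are called the other shared regions here. Scores chose the members, so scores and ranks are given as a description and were not tested.

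The tissue came from C57BL6 mice about 9 weeks of age, and the series compares wild-type mice with mice lacking Mbd1 (Mbd1 KO). Titles name 2 libraries of each genotype, WT 1, WT 2, Mbd1 KO 1 and Mbd1 KO 2, which held 38142, 46651, 56382 and 49671 summits. The genotype field disagrees with the title for WT 1, which it calls Mbd1 KO, and for Mbd1 KO 2, which it calls WT. Groups follow the titles, and tests between groups are also given with the genotype field. The sources do not say whether libraries of a genotype came from separate animals, how Mbd1 was deleted, or whether an animal or a pool gave each library. Read depth is unknown from lists of summits, and p-values measure only the spread between these libraries, which may be technical.

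FAIRE separates fixed, sheared chromatin by phenol extraction, and DNA with few nucleosomes stays in the water phase. In mammalian cells such DNA marks active promoters, enhancers and insulators, and promoters of widely used genes are open in nearly every cell type. Mbd1 encodes a nuclear protein with a domain that recognises methylated CpG, and it takes part in gene silencing and in adult neurogenesis in the hippocampus. Genes and sequence at the regions were not analysed here, so regions are named by their position in mm9, counted from 1. Whether a high score in all 4 libraries reflects open chromatin was not tested, since the sources used here name no input control.

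The top of the list was the same in all 4 libraries. Ranks below are places among the 26592 regions shared by all 4 libraries, a set of the same size in each library. The first 11 ranks were held by the same 11 regions in every library, and all 11 were members. Further down the order differed more. Of the first 25 ranks 16 regions were common to all 4 libraries, of the first 100 ranks 43, and of the first 1000 ranks 644.

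The region with the highest score lay at chr9:35112979-35112992. It scored 301 in WT 1, 289 in WT 2, 321 in Mbd1 KO 1 and 297 in Mbd1 KO 2, and ranked first in all 4. Its 4 summits fell on 14 bp. The region at chr12:3109975-3109992 scored 251, 255, 241 and 248 in the same order of libraries, and ranked 2 in all but Mbd1 KO 1, where it ranked 3. The WT and Mbd1 KO ranks of this region overlapped. The region at chr12:98299806-98299820 scored 249, 236, 263 and 240, and ranked 3, 3, 2 and 3. These 3 regions stood above the rest in every library.

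The next regions scored close to each other. The region at chr17:36621755-36621772 scored 198 in WT 1, 197 in WT 2, 208 in Mbd1 KO 1 and 205 in Mbd1 KO 2. At chr5:37052244-37052248 the scores were 195, 191, 192 and 189, and the 4 summits lay within 5 bp. At chr9:123371133-123371142 they were 199, 191, 195 and 187. In this last region and in the one on chromosome 5 the lowest score of all was that of Mbd1 KO 2, while on chromosome 17 it was that of WT 2.

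The first 10 regions closed with chr3:5860504-5860514, chr6:9839982-9839990, chr15:74917301-74917306 and chr3:95848674-95848694. Their lowest scores were 181, 181, 174 and 187, and their highest 207, 192, 199 and 204. The 10 regions lay on 7 chromosomes and were between 5 and 21 bp wide. In 9 of the 10 no library had another summit within 5 kb, against 71.4% of all members and 64.5% of the other shared regions. At the 10 the summits of the libraries thus lay close together, and most of the 10 had no other summit within 5 kb. Width is the stretch that holds the summits, so the shape of a peak was not measured. The 10 were named for their rank, and their share without another summit was not tested against the other members.

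**Figure D1:**
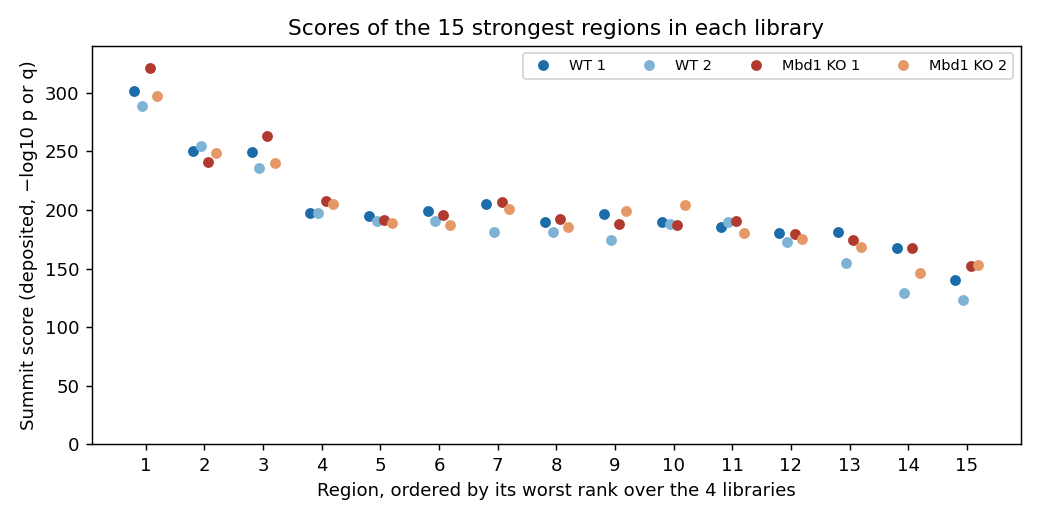
Deposited summit scores (y axis, −log10 of a p or q value) of the 15 regions with the smallest worst rank (x axis, in that order), with 1 point per library; regions 11 to 15 were added after values were seen. The first 3 regions score from 236 to 321, regions 4 to 11 from 174 to 208, and region 15, at chr1:90174210-90174227, from 123 to 153.

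Over all members the levels and the threshold differed between libraries. The threshold was a score of 54.9 in WT 1, 43.3 in WT 2, 48.3 in Mbd1 KO 1 and 49.7 in Mbd1 KO 2. Members had a median score of 78.3 in WT 1 (quartiles 67.1 and 90.97), 63.9 in WT 2 (54.03 and 75.8), 83.3 in Mbd1 KO 1 (70.9 and 99.7) and 77.4 in Mbd1 KO 2 (65.7 and 92.8). WT 2 was thus the lowest and Mbd1 KO 1 the highest. The other shared regions had median scores of 15.04, 15.2, 16.5 and 17.9, in an order that was not the same. Scores depend on read depth, which is unknown, so these levels are not compared between genotypes.

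**Figure D2:**
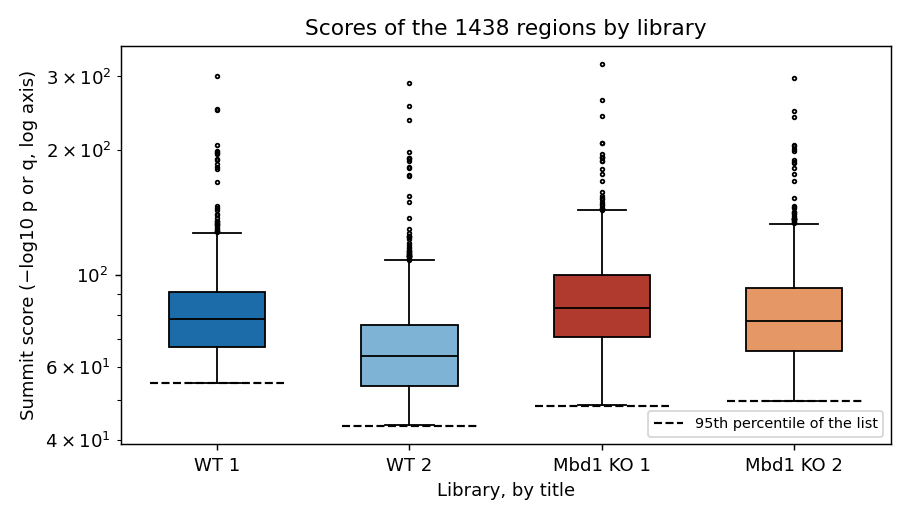
Scores of the 1438 regions on a log axis by library (box: quartiles and median; whiskers: the farthest region within 1.5 box lengths; points: regions beyond them). The dashed line is the 95th percentile of that library's own list, and the median lies at 63.9 in WT 2 and at 83.3 in Mbd1 KO 1.

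Members took up most of the strongest summits of each list. In WT 1, 1438 of the 1916 summits at or above the threshold (75.1%) lay in members, in WT 2 1438 of 2333 (61.6%), in Mbd1 KO 2 1438 of 2500 (57.5%) and in Mbd1 KO 1 1438 of 2820 (51.0%). Most of the rest lay in shared autosomal regions that missed the threshold elsewhere, from 380 summits in WT 1 to 1235 in Mbd1 KO 1. Between 7 and 13 of these strong summits per library lay in a region that some other library had not called. Strong summits were thus almost never private to some of the libraries.

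A further 480 shared regions reached the threshold in 3 libraries and missed it in 1. WT 1 was the library missed in 261 of them, WT 2 in 142, Mbd1 KO 2 in 63 and Mbd1 KO 1 in 14. This order is that of the list lengths, the shortest list having the fewest summits above its own 95th percentile. Another 14 regions passed in all 4 libraries outside the numbered autosomes, and 62 lay in 46 dense windows and were dropped.

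Just inside the threshold lay chr18:70689973-70689996 with scores of 57.5 in WT 1, 49.8 in WT 2, 48.6 in Mbd1 KO 1 and 53.3 in Mbd1 KO 2. Next came chr2:122203217-122203273 with 60.4, 43.5, 58.5 and 60.6, and chr5:132183607-132183634 with 54.9, 46.4, 61.9 and 49.7. Just outside lay chr3:71532979-71533009 with 59.5, 43.0, 48.5 and 55.9, chr10:89544554-89544626 with 54.8, 58.9, 59.6 and 55.5, and chr2:109120878-109120893 with 65.3, 42.9, 68.3 and 64.7. Each of these 3 missed the threshold in 1 library, which was WT 2, WT 1 and WT 2 in turn. At the edge the set rests on small differences in 1 library.

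Summit positions were not used to rank regions, but they come from the same summits as the scores. Among the other shared regions, too, summits lay closer together where scores were higher. The positions agreed closely between libraries at the members. Each member held exactly 1 summit of each library, so 0 of 1438 had more than 1 in any of the 4. Among the other shared regions between 0.055% and 0.101% did, a share so small that the 0 does not set the members apart. The median width of a member, which is the stretch that holds its 4 summits, was 30 bp (quartiles 20 and 47), against 42 bp (29 and 61) for the other shared regions. A width of at most 10 bp was found in 91 members (6.33%) and in 424 of the others (1.79%).

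The mean distance of a library's summit from the median position of the 4 was 12.3 bp in WT 1, 13.5 bp in WT 2, 11.6 bp in Mbd1 KO 1 and 12.5 bp in Mbd1 KO 2. At the other shared regions it was 16.3, 16.2, 15.9 and 15.5 bp. Members were lower in 4 of 4 libraries, with a difference of −3.48 ± 0.718 bp (SD, n = 4; exact sign-flip permutation p = 0.125, two-sided, the smallest that 4 libraries allow). The 4 distances in a region share 1 median and are not independent. Shifts to one side averaged under 1 bp in every library: the mean signed offset lay between −0.63 bp in WT 1 and 0.37 bp in WT 2.

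**Figure D3:**
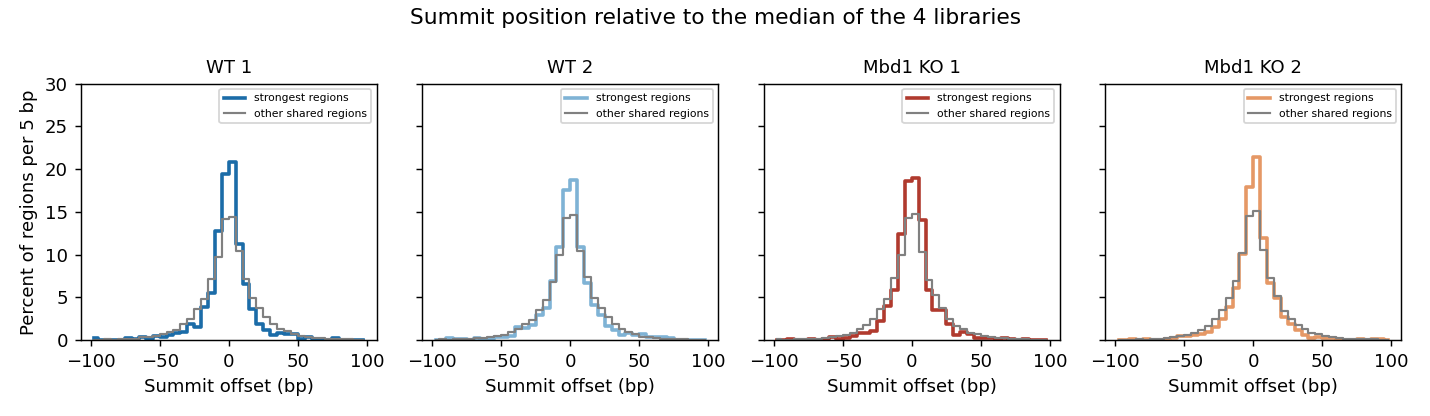
Percent of regions (y axis) by the signed distance of the library's summit from the median of the 4 summits (x axis, bins of 5 bp), with 1 panel per library; coloured lines are the strongest regions and grey lines the other shared regions. The coloured peaks are higher and narrower than the grey ones in all 4 panels.

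By title, the mean summit distance at members was 12.1 ± 0.609 bp in Mbd1 KO and 12.9 ± 0.795 bp in WT (SD, n = 2 each), a difference of −0.83 bp (exact permutation p = 0.667, two-sided; 2 against 2 cannot give less than 0.33). With the genotype field the means were 11.98 ± 0.494 and 12.98 ± 0.681 bp (exact permutation p = 0.333). Neither difference passed the threshold, and this design could not pass it. Between single libraries the median distance of the summits in a member ran from 13 to 15 bp over the 6 pairs. It was 14 bp for WT 1 with WT 2 and 13 bp for Mbd1 KO 1 with Mbd1 KO 2, and all 6 pairs were closer than the 19 to 20 bp of the other shared regions.

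Stronger shared regions had smaller median widths, down to a level that the members shared. With the other shared regions in 10 equal classes by their lowest score percentile, the weakest class had a median width of 75 bp, the next 53 bp, and the strongest 33 bp. In 4 equal classes of members by worst rank the medians were 33, 28, 31 and 30 bp from the strongest to the weakest. The strongest of these classes was thus no narrower than the rest, although the first 10 regions had a median of 12.5 bp.

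**Figure D4:**
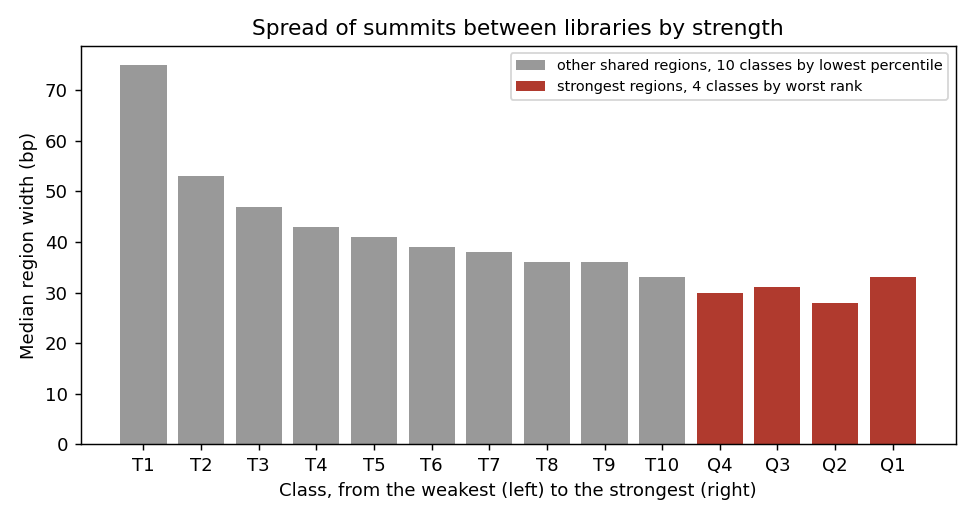
Median region width in bp (bars from 0) for 10 equal classes of the other shared regions by their lowest score percentile (grey, T1 to T10) and 4 equal classes of the strongest regions by worst rank (red, Q4 to Q1). The median falls from 75 bp in T1 to 33 bp in T10 and stays between 28 and 33 bp in the red bars.

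Some members were extremes of width. At chr2:22443586, chr13:113368444 and chr18:68851792 all 4 libraries had their summit on the same base. The scores at chr13:113368444 were 78.3, 72.5, 83.7 and 75.2 in WT 1, WT 2, Mbd1 KO 1 and Mbd1 KO 2. These 3 were chosen after their values were seen. At the other end, chr17:57171173-57171541 was 369 bp wide, with summits at 57171310 in WT 1, 57171502 in WT 2, 57171173 in Mbd1 KO 1 and 57171541 in Mbd1 KO 2. The region at chr8:72736320-72736654 was 335 bp wide, and its summits in WT 1 and Mbd1 KO 1 lay within 20 bp of each other, at 72736654 and 72736637. The region at chr11:23155614-23155887 was 274 bp wide because the WT 2 summit, at 23155887, lay apart from the other 3, which fell between 23155614 and 23155649. In none of these 3 widest members did the summits part by title. By the genotype field they parted in the first and second, where WT 1 and Mbd1 KO 1 lay on one side and WT 2 and Mbd1 KO 2 on the other, and not in the third.

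In each library a smaller share of members than of other shared regions had another summit nearby. A further summit within 5 kb of the region was found for 264 members (18.4%) in WT 1, 298 (20.7%) in WT 2, 295 (20.5%) in Mbd1 KO 1 and 334 (23.2%) in Mbd1 KO 2. At the other shared regions the shares were 20.9%, 23.8%, 25.8% and 25.3%. Members were lower in 4 of 4 libraries, with a difference of −3.23 ± 1.46 percentage points (SD, n = 4; exact sign-flip permutation p = 0.125, two-sided, the smallest that 4 libraries allow). This comparison and the one of summit distances were added after the results were seen. In both, the same regions were used in all 4 libraries, so the 4 differences are not independent.

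By title the share of members with such a summit was 21.9 ± 1.92% in Mbd1 KO and 19.5 ± 1.67% in WT (SD, n = 2 each), with p = 0.667 in the exact two-sided permutation test. With the genotype field the order turned, at 19.4 ± 1.52% in Mbd1 KO and 22.0 ± 1.77% in WT (exact permutation p = 0.333). WT 1, the shortest list, had the smallest share, and Mbd1 KO 1, the longest, did not have the largest. With all lists cut to the length of the shortest, the difference by title was 1.02 percentage points in place of 2.33 (exact permutation p = 0.667). Whether list length bears on this share was not tested.

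The nearest other region shared by all 4 libraries lay a median of 19.9 kb from a member (quartiles 9.21 and 37.4 kb) and 23.2 kb from the other shared regions (9.32 and 51.1 kb). A shared neighbour within 50 kb was found for 1195 members (83.1%) and for 74.4% of the others, while within 5 kb it was found for 201 (13.98%) and 15.03%. Closer still the order turned again, with a shared neighbour within 1000 bp for 76 members (5.29%) and 4.05% of the others. The closest cases were chr7:29526890-29526925, chr9:13422692-13422780 and chr11:85166566-85166598, with a neighbour 317, 319 and 337 bp away. The most remote were chr9:19426448-19426471, chr1:185858209-185858241 and chr2:172825542-172825564, at 838, 790 and 560 kb.

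Members were spread unevenly over the chromosomes. Chromosome 7 held 155 of them, 11.2% of its 1384 shared regions, followed by chromosome 11 with 130 (8.36%), chromosome 19 with 60 (8.19%) and chromosome 8 with 97 (7.52%). The lowest shares were on chromosome 18 with 34 (3.60%), chromosome 3 with 61 (3.87%) and chromosome 14 with 44 (3.97%). Regions are not replicates, and these shares were not tested. The share of chromosome 7 was the highest of all 19 autosomes in each of 11 other settings of the rule, and lay between 10.8% and 11.1% with any 1 library left out. Chromosome 18 had the lowest share in 8 of the 11. These settings largely reuse the same regions and libraries, so they are not independent. The lead of chromosome 7 was narrow at the 99th percentile, with 1.88% against 1.75% on chromosome 17 (242 members).

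**Figure D5:**
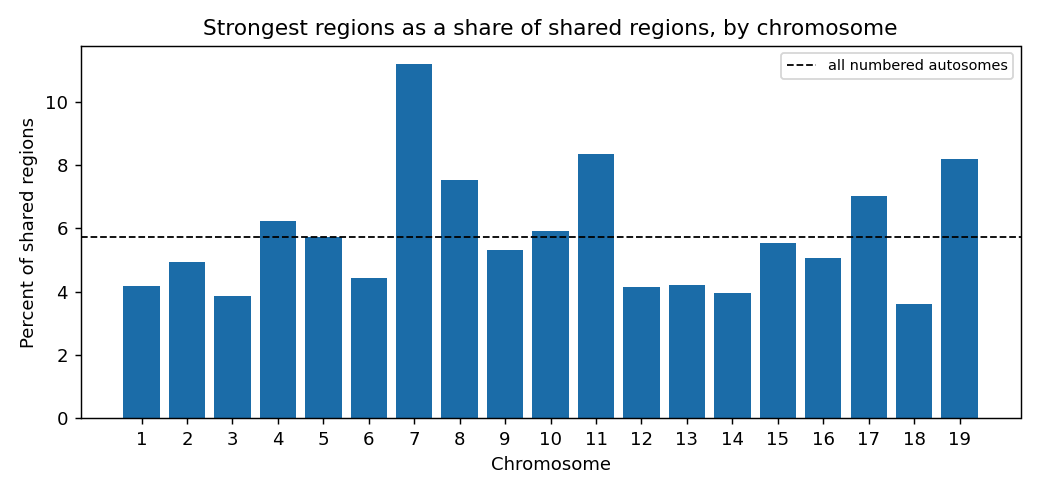
Strongest regions as a percent of the shared regions that passed the chromosome and window filters (y axis, bars from 0) for each numbered autosome (x axis). The dashed line is 5.71%, the value over all of them, and chromosome 7 reaches 11.2%.

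A stretch of chromosome 7 from 25000001 to 30000000 held 26 members among 88 shared regions (29.5%), the most of any 5 Mb. Without it chromosome 7 still had 129 members among 1296 shared regions (9.95%). The next stretches were chromosome 8 from 70000001 to 75000000 with 21 of 115 (18.3%), chromosome 19 from 5000001 to 10000000 with 19 of 91 (20.9%) and chromosome 10 from 80000001 to 85000000 with 19 of 99 (19.2%). At the other extreme, chromosome 2 had no member between 39081943 and 69193651, a gap of 30.1 Mb that held 318 shared regions. The median gap between members was 499 kb (quartiles 136 and 1756 kb).

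Most members were the only one in their window of 50 kb, 1288 of the 1361 windows with any. There were 69 windows with 2 members and 4 with 3. On chromosome 2 the 3 lay within about 4 kb. The first, at chr2:98502815-98502827, scored 108 in WT 1, 112 in WT 2, 104 in Mbd1 KO 1 and 107 in Mbd1 KO 2, and the third, at chr2:98506925-98506957, scored 119, 114, 124 and 116. In the same order of libraries the first ranked 120, 34, 301 and 154, and the third 54, 32, 86 and 94. Between them chr2:98504028-98504086 was weaker, at 69.0, 71.4, 74.9 and 77.0. On chromosome 10 the 3 members spread from 80813296 to 80847059, and the strongest of them, chr10:80847046-80847059, ranked 163, 48, 217 and 164. The windows of 3 were chosen after their values were seen.

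Ranks at the members parted the titled groups about as often as at shared regions as a whole. Both Mbd1 KO libraries ranked a member ahead of both WT libraries in 227 of 1438 (15.8%), where 16.1% of all 26592 shared regions did so. The opposite order was found in 232 (16.1%), against 16.2% of all shared regions. By the genotype field the counts were 284 (19.7%) beside 18.2% and 233 (16.2%) beside 17.9%. Both shares by title lie near the background and are not a result about the members.

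The members with the largest rank differences by title follow; such differences can occur only where the worst rank is large. At chr4:135537790-135537833 the scores were 62.1 in WT 1, 44.5 in WT 2, 79.2 in Mbd1 KO 1 and 91.7 in Mbd1 KO 2, and the ranks 1436, 2119, 880 and 386. At chr4:82592416-82592451 the ranks were 1539, 2181, 967 and 760, and at chr8:80134634-80134679 they were 1748, 1397, 718 and 438. In these 3 both libraries titled Mbd1 KO stood ahead of both titled WT.

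In the opposite direction chr4:126920961-126920969 scored 75.01 in WT 1, 51.4 in WT 2, 51.7 in Mbd1 KO 1 and 49.7 in Mbd1 KO 2, and ranked 879, 1461, 2416 and 2435. At chr3:94937956-94937961 the ranks were 1326, 1536, 2733 and 2340, and at chr7:132635023-132635040 they were 1490, 1012, 2733 and 1894. The titled groups did not overlap in any of these 6 regions, which were chosen for that difference from the scores and were not tested. With the genotype field the groups overlapped in all 6, as they must, since each field group holds a library of each title. The 3 regions ahead in Mbd1 KO were 44, 36 and 46 bp wide and the 3 ahead in WT 9, 6 and 18 bp.

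Width followed the same order over all members whose groups did not overlap by title. The 227 ahead in Mbd1 KO had a median width of 33 bp (quartiles 21.5 and 48.5), and 7 of them (3.08%) were at most 10 bp wide. The 232 ahead in WT had a median of 27.5 bp (18 and 43), and 26 (11.2%) were at most 10 bp wide. Among the other shared regions the medians by title were 43 bp ahead in Mbd1 KO and 41 bp ahead in WT. Of these, 1.84% and 2.45% were at most 10 bp wide. By the genotype field the members' medians were 33 bp ahead in Mbd1 KO and 30 bp ahead in WT, with 3.87% and 6.87% at most 10 bp wide. The other shared regions had the opposite order by the field, with medians of 40 bp ahead in Mbd1 KO and 43 bp ahead in WT. Their shares at most 10 bp wide were 1.91% and 1.58%. The classes come from the scores and regions are not replicates, so this is a description without a test.

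The order of the members was shared only in part below the top. Spearman's rho of the scores over the 1438 members was 0.676 for WT 1 with WT 2 and 0.761 for Mbd1 KO 1 with Mbd1 KO 2. The pairs of the genotype field had 0.757 (both numbered 1) and 0.757 (both numbered 2), and the remaining pairs 0.728 and 0.720. These are correlations across regions, whose range the threshold cuts. By this measure the WT libraries were the least alike pair, and the Mbd1 KO libraries differed little from both pairs of the field. By the median distance of summits the least alike pair was WT 2 with Mbd1 KO 1, at 15 bp. By the mean distance it was WT 1 with WT 2, at 22.04 bp, against 21.90 bp for WT 2 with Mbd1 KO 1. The places of a member among the shared regions ranged over a median of 575 ranks between its best and worst library. It was at most 100 in 93 members; a region with a small worst rank cannot have a larger range.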

How the data were processed

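FAIRE-seq libraries of single reads of 50 bases were analysed as deposited lists of summits, 1 per library. Bowtie, SAMtools and MACS2 and the build mm9 are named without versions, per the submitters' processing notes. Thresholds, read filters and an input control are named in none of the sources used here. Column 5 of the deposited lists was read as the −log10 of a p or q value (lowest 1.32), without knowing which. Depth is unknown, so no counting interval was computed.

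Summits were joined within 250 bp and members chosen as stated in the report; a region belongs to the window of its first base. Ranks were taken over the 26592 shared regions. Groups are the titles. Values per library were compared with exact two-sided permutation tests. The rule was also run on simulated lists with members planted at high scores in every list. These lists held no dense windows and their sites lay far apart, so the window filter and the joining distance were not checked. Planted scores came from the top of each deposited list, so members near the threshold were not checked either. The gene tables at hand are of another build, so genes and sequence were not analysed. Named regions were the 10 with the smallest worst rank; 3 just inside and 3 just outside the threshold; 3 each with the largest rank difference between titles in either direction; the 3 widest; and the 3 nearest to and 3 farthest from a shared neighbour. Regions named in addition are marked. The members and lists were chosen with earlier results of these data known. Alternatives were the genotype field, joining distances of 100 and 1000 bp, percentiles of 90 and 99, lists of equal length, no window filter, flanks of 1 and 20 kb, median offsets, each library left out and a replicate block. Python 3.11.15, numpy 2.4.6, pandas 2.3.3 and matplotlib 3.10.9 were used.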

Additional observations from a re-analysis of the deposited data

How the results depend on the processing

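The number of members was 2842 at the 90th and 242 at the 99th percentile, against 1438; it stayed within 1.5 times of that in the other settings run, from 1229 with lists of equal length to 1874 in the 2 libraries whose labels agree (added once results were known), and was 1452 to 1688 with 1 library left out. Their median width was 34 bp with joining at 1000 bp, 35 bp at the 99th percentile, 23 to 25 bp with 1 library left out and 16 bp in the 2 libraries whose labels agree; fewer summits per region make it narrower by construction. The median distance to the nearest shared region, 19.9 kb, was 20.7 kb with joining at 1000 bp, 20.956 kb at the 90th and 21.5 kb at the 99th percentile, 20.961 kb with lists of equal length, 18.98 kb without the window filter, 18.7 to 19.5 kb with 1 library left out and 18.1 kb in the 2 libraries whose labels agree; the cause was not tested.

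The difference in the share of members with a flanking summit (Mbd1 KO minus WT, 2.33 percentage points) turned to −2.54 with the genotype field, because WT 1 and Mbd1 KO 2 change groups, and to −0.107 in the 2 libraries whose labels agree. It was 1.07 to 3.75 with 1 library left out, 1.02 with lists of equal length, 0.834 with a flank of 1 kb and 5.18 with a flank of 20 kb. The difference in summit distance kept its sign in all settings run and was −1.32 to −0.366 bp with 1 library left out, −1.34 bp at the 99th percentile, −0.451 bp with joining at 1000 bp and −0.125 bp with the median in place of the mean; it has no value in the 2 libraries alone, where both lie equally far from their median. The share with more than 1 summit differed by 0 in all settings but joining at 1000 bp (0.786 percentage points). With a replicate block the differences were −0.83 bp (−0.70 and −0.96 in the 2 pairs), 2.33 percentage points (2.16 and 2.503) and 0 for more than 1 summit; exact sign-flip permutation gave p = 0.5, 0.5 and 1, and 2 pairs cannot give less than 0.5. No label says what the replicate numbers stand for, and rank deviations of same-numbered libraries correlated at 0.131 over the members. The genotype field calls both libraries numbered 1 Mbd1 KO and both numbered 2 WT. Replicate number and field genotype thus cannot be told apart here. The promoter alternative was not run, since no annotation of mm9 was used. No test with 2 libraries against 2 can pass 0.05, and depth cannot be corrected for.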
